A study of Homo sapiens with 6 samples.

Results

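The regions described here are the 5928 matrix-associated regions (MARs) that were called in human pluripotent stem cells after knockdown of HNRNPU and that shared not even 1 bp with a region called in either control. The members were chosen by measured values, the positions of the regions called in the 3 groups. They were drawn from the 36277 regions of the HNRNPU knockdown list, and the 3 lists of the series held 115751 regions in all. MAR-seq was performed on the H1 human pluripotent stem cell line, an established embryonic stem cell line, in 3 groups of 2 samples each. These were untreated hPSCs, hPSCs carrying an shRNA against HNRNPU (shHNRNPU) and hPSCs carrying an shRNA against LUC (shLUC), the hairpin control. Nuclei were freed of soluble material in a detergent buffer and fixed, the DNA that was not held was cut away with 6 restriction enzymes (MspI, HaeIII, RsaI, AluI, BamHI and PvuII), and the DNA that stayed behind was sequenced next to a sonicated input. The labels name 1 hairpin target per group and give neither the time after knockdown nor the remaining level of HNRNPU. Each group was deposited as 1 list of regions without heights or p-values, so neither the knockdown nor the identity of the cells could be checked here, and the spread between the 2 samples of a group could not be seen. No test between groups was therefore possible. Shares are given with 95% Wilson binomial intervals, which cover counting error only and treat neighbouring regions as independent.

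MARs are stretches of DNA that stay with the insoluble protein and RNA scaffold of the nucleus when the rest of the chromatin is extracted and digested. They are classically described as AT-rich and are thought to anchor the bases of chromatin loops. HNRNPU, also called scaffold attachment factor A (SAF-A), binds both DNA and RNA, is one of the abundant proteins of this scaffold, and takes part in holding Xist RNA on the inactive X chromosome.

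The sequences at gene starts show what kind of DNA some of these regions held. The knockdown-only regions overlapped 472 of 35116 RefSeq promoter windows, 1.34% of them, where a window runs from 250 bases before to 50 bases after an annotated start (assembly GRCh38.p14). In 50 windows of protein-coding genes the 250 upstream bases lay wholly inside a knockdown-only region and in no gene body, and 4 of these are printed for their GC content. A further 3 are printed because their genes belong to the gene lists described below. Capitals mark the cutting sites of the 6 enzymes, which read the same on both strands: CCGG (MspI), GGCC (HaeIII), GTAC (RsaI), AGCT (AluI), GGATCC (BamHI) and CAGCTG (PvuII, which contains the AluI site). MspI and HaeIII sites can share bases. The first 3 sequences lie upstream of DCC, the netrin receptor of growing axons (chr18:52339947-52340196, plus strand), RPS9, a protein of the small ribosomal subunit (chr19:54200608-54200857, plus strand), and ZNF347, a zinc finger gene (chr19:53159054-53159303, minus strand).
DCC: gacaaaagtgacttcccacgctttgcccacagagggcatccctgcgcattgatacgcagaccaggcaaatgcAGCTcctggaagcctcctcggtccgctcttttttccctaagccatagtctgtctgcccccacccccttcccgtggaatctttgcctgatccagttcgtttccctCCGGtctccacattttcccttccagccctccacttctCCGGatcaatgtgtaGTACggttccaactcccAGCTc
RPS9: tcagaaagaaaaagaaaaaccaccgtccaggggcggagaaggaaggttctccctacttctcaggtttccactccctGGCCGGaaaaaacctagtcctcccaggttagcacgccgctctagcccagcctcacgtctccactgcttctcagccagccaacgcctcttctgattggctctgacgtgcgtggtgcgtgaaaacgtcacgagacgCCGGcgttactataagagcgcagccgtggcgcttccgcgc
ZNF347: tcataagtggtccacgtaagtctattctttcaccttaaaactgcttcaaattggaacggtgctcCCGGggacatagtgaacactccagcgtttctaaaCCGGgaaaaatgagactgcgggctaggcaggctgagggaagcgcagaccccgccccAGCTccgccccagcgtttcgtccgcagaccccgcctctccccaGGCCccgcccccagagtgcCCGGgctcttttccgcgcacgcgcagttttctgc
The lowest GC content of the 50 was upstream of IL23A, a cytokine subunit (chr12:56338634-56338883, plus strand), and a value next to the median of 74.2% was upstream of ZC3H7A, a CCCH zinc finger gene (chr16:11797259-11797508, minus strand). The highest values were upstream of NFIC, a nuclear factor I transcription factor (chr19:3359380-3359629, plus strand), and of KMT2C, a histone H3 lysine methyltransferase (chr7:152436004-152436253, minus strand).
IL23A: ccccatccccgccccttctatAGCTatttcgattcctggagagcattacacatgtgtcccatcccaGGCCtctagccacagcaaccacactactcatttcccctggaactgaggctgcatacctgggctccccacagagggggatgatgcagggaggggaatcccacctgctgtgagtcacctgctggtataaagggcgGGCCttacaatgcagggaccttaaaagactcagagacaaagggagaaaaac
ZC3H7A: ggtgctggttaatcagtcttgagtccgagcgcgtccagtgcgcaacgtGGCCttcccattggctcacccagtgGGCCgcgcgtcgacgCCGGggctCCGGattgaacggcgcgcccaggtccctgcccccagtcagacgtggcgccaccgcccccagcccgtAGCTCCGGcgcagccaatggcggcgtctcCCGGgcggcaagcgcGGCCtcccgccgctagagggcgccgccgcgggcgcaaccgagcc
NFIC: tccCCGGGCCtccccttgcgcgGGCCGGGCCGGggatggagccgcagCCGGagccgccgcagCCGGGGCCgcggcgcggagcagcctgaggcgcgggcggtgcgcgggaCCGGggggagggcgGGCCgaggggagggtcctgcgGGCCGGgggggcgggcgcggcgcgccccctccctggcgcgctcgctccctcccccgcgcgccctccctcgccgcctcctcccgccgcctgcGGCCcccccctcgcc
KMT2C: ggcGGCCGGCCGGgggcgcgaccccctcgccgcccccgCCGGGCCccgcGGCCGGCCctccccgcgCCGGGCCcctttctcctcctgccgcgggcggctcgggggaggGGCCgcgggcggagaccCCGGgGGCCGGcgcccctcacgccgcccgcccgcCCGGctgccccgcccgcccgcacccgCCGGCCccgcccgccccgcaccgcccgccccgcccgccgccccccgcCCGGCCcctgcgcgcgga
GC content was 54.8% upstream of IL23A, 74.0% upstream of ZC3H7A, 87.2% upstream of NFIC and 92.0% upstream of KMT2C. The IL23A stretch held 0 MspI and 2 HaeIII sites, while the KMT2C stretch held 10 of each. None of these 4 stretches had an RsaI, BamHI or PvuII site.

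The promoter windows reached by the knockdown-only regions were GC-rich. Their mean GC content was 69.98% ± 9.13 (SD over 472 windows of 428 genes), against 57.5% ± 13.2 over all 35116 windows. For comparison, regions found with both hairpins (in the shHNRNPU and shLUC lists but not in the hPSC list), with shLUC only and in untreated hPSCs only were taken. The windows reached by regions of both hairpins were higher still, at 72.1% ± 7.54 (1574 windows). Those of regions found with shLUC only averaged 67.8% ± 7.80 (382 windows) and those of regions found in hPSCs only 63.4% ± 8.44 (4995 windows). Of the 472 windows, 3 also held a shLUC region and 6 an hPSC region. The rule of selection bars control regions from overlapping a member, so these low counts follow from it and are no finding. A window counted as reached at any overlap, and 89 of the 472 (18.9%) lay wholly inside a member. Off chromosome 8, 371 of 5690 members (6.52%) overlapped a window. The values thus describe the windows, and the GC content of the members themselves was not read. Windows of 1 gene often overlap, so the SDs describe the windows and are no error of a replicate. CpG dinucleotides followed the same order, with a median of 32 per window for the knockdown-only regions, 35 for both hairpins, 29 for shLUC only and 24 for hPSC only, against 14 over all windows.

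Sites of the 2 enzymes with GC-only recognition sequences were frequent in these windows. An MspI site was present in 93.2% of the windows reached by knockdown-only regions and in 63.1% of all windows, and a HaeIII site in 96.0% and 79.0%, respectively. Sites of the other 4 enzymes were present in fewer of these windows than of all windows. RsaI sites were present in 21.0% against 29.8%, AluI sites in 67.4% against 74.1%, BamHI sites in 5.30% against 6.83%, and PvuII sites in 15.7% against 18.0%. MspI sites were also frequent in the windows of both hairpins (95.1%), shLUC only (90.8%) and hPSC only (88.3%). HaeIII sites were present in 96.4, 91.4 and 91.2% of these, respectively. BamHI sites were present in 7.62, 7.59 and 7.63% of them, above the 6.83% of all windows. The frequency of MspI and HaeIII sites and GC content move together across these classes of windows. The part of the enzymes in which regions were called was not tested.

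**Figure D1:**
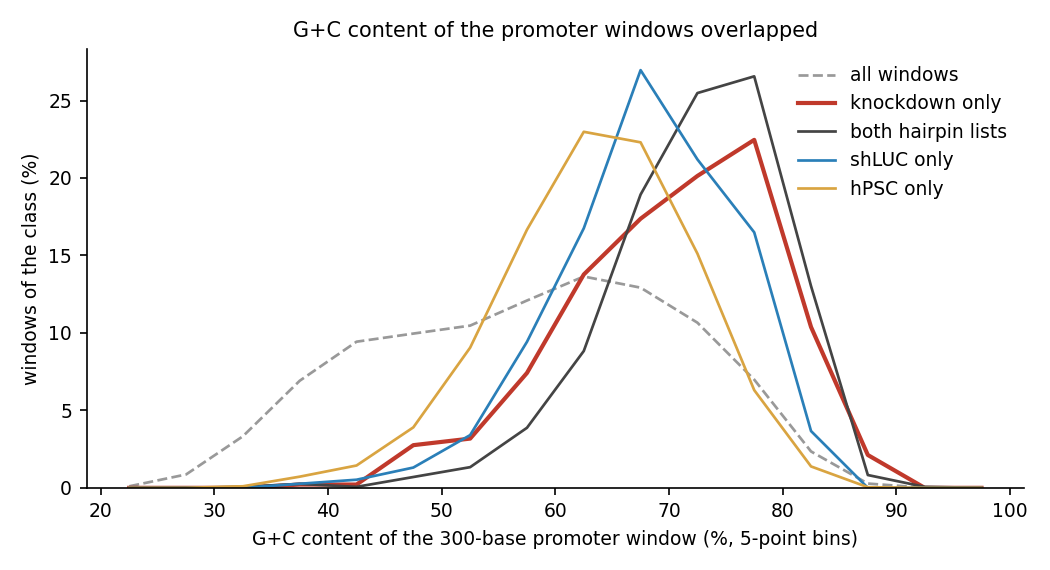
GC content of the promoter windows (percent, 300 bases each) reached by each class of regions, beside all windows. The windows of the knockdown-only regions lie around a mean of 69.98%, above all windows (57.5%) and the hPSC-only windows (63.4%) and below those of both hairpins (72.1%).

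The share of promoter windows reached rose with GC content for the regions of both hairpin lists and for the knockdown-only regions, but not for the other 2 classes. Among windows under 50% GC, 0.140% were reached by a knockdown-only region, and among windows of 80% GC or more 6.39% were (interval 4.98 to 8.15%). The regions of both hairpins went from 0.158% to 23.7% over the same classes. The shLUC-only regions were highest in windows of 70 to 80% GC, at 2.32%, and reached 1.52% of those of 80% or more. The hPSC-only regions were highest in windows of 60 to 70% GC, at 24.25%, and reached 7.68% of the GC-richest class. In the GC-richest class, therefore, 59 of 924 windows held a knockdown-only region and 14 a shLUC-only region, although the shLUC-only class was the larger of the 2 (9693 regions).

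All the knockdown-only regions were 400 bp long, none overlapped another, and together they covered 2.37 Mb. They made up 16.3% of the shHNRNPU list. Of the rest, 24067 (66.3%) overlapped the shLUC list only, 3801 (10.5%) both other lists and 2481 (6.84%) the hPSC list only. These counts are what the rule of selection fixes and are no finding. The hairpin lists resembled each other in another way. Of the 27868 shHNRNPU regions that overlapped a shLUC region, 27865 had identical coordinates in both lists, whereas this held for 2352 (37.4%) of the 6282 that overlapped an hPSC region. The sources used here do not say how the lists were drawn up.

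The selection rested on a sharp edge. The member closest to a shLUC region (chr13:30465006-30465405, hg38) lay 13 bp from it, and the member closest to an hPSC region (chr11:23961626-23962025) lay directly beside it, with 0 bp between. Just outside, the region left out with the smallest overlap with the shLUC list (chr15:73052193-73052592) shared 25 bp, and the one with the smallest overlap with the hPSC list (chr8:55674176-55674575) shared 1 bp. Few members were that close to the edge. The gap to the nearest region of either control list had a median of 10.4 kb, and 354 members (5.97%) lay within 1 kb of one. Within 20 kb, 72.5% of the members had a control region. For shLUC regions alone this share was 50.3%, and 48.2% of the shLUC-only regions had a shHNRNPU region within 20 kb.

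The knockdown-only regions were spread among the other regions of the list and did not form runs. The next shHNRNPU region along the chromosome was also a member in 16.9% of cases after a member (1002 of 5924) and in 16.2% after another region (4923 of 30329). The median gap between successive members was 265.7 kb, and 44 of 5904 successive pairs lay within 5 kb. Of 2912 windows of 1 Mb, 2304 (79.1%) held at least 1 member, 308 held 5 or more and 10 held 10 or more. The fullest window, at the end of the long arm of chromosome 12 (chr12:132000001-133000000), held 13 members among 38 shHNRNPU, 41 shLUC and 29 hPSC regions.

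Most knockdown-only regions lay in genes. The centre fell in a RefSeq gene body in 66.4% (interval 65.2 to 67.6%), a value close to that of both hairpins (67.2%) and of shLUC only (66.1%) and above that of hPSC only (63.6%). Protein-coding genes accounted for 55.6% and genes without a coding product alone for 10.9%. On 17 of 22 autosomes the share in gene bodies was higher than for hPSC-only regions, whereas the direction was mixed against both hairpins (8 of 22) and shLUC only (11 of 22). Outside protein-coding genes and over 100 kb from their ends lay 13.6% of the knockdown-only regions, 14.1% of shLUC only, 15.2% of hPSC only and 16.7% of both hairpins.

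The knockdown-only regions lay at ends of protein-coding genes and in promoter windows more often than the regions found with the control hairpin only. The centre lay within 1 kb of an end in 10.1% of the knockdown-only regions (598 regions, interval 9.35 to 10.9%) and in 6.32% of the shLUC-only regions, and the share was higher in the former on 21 of 22 autosomes. The regions of both hairpins had 9.12%, with 12 of 22 autosomes higher in the knockdown-only regions. The hPSC-only regions had 14.8%, and the knockdown-only regions were higher on 2 of 22 autosomes. Promoter windows, which were analysed off chromosome 8, gave the same order. They were reached by 6.52% of the knockdown-only regions (371 of 5690), 5.46% of those of both hairpins, 3.40% of shLUC only and 12.04% of hPSC only, and the knockdown-only share exceeded that of shLUC only on 21 of 21 autosomes.

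The lists themselves differed near gene ends, and the rule takes away regions that overlap the hPSC list. The share within 1 kb of an end was 14.4% over the whole shHNRNPU list, 13.0% over the shLUC list and 19.3% over the hPSC list. Among shHNRNPU regions that overlapped an hPSC but no shLUC region it was 28.0%, and among regions found in all 3 lists 46.0%. How far this removal moved each comparison was not tested, nor was the part of the total number of regions, 36277 in the shHNRNPU list against 39368 in the shLUC list.

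**Figure D2:**
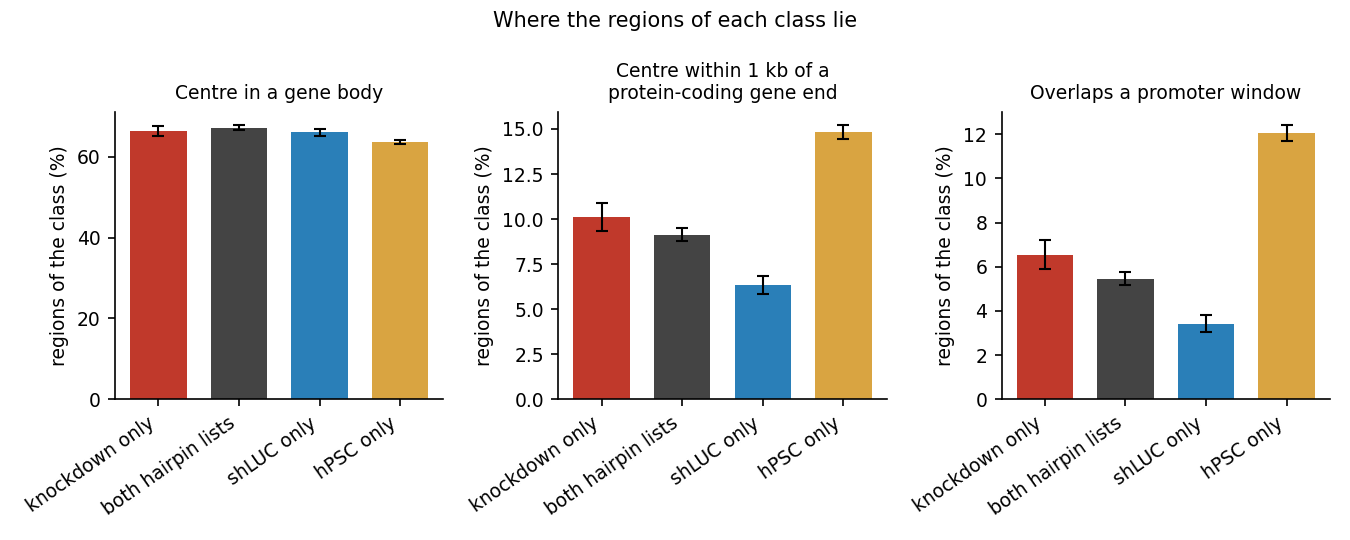
Share of the regions of each of 4 classes (bars, percent, with 95% Wilson intervals as error bars) that lie in a gene body, near a protein-coding gene end (1 kb) or in a promoter window. Near gene ends and in promoter windows the knockdown-only regions lie above the shLUC-only regions (10.1 against 6.32% and 6.52 against 3.40%) and below the hPSC-only regions (14.8 and 12.04%).

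The regions near gene ends were mostly at starts. Of the knockdown-only regions, 7.01% had the centre within 1 kb of the start of a protein-coding gene with a known strand (also off chromosome 8) and 1.78% within 1 kb of its finish. Both hairpins gave 6.21% and 1.44%, shLUC only 3.74% and 1.64%, and hPSC only 11.7% and 1.85%. In percentage points the classes differed more at starts than at finishes.

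Around the nearest annotated start, of protein-coding and other genes alike, the knockdown-only regions lay further upstream than the regions of both hairpins. The 500 bp upstream of a start held 3.50% of the knockdown-only regions (199 regions, interval 3.05 to 4.01%) and 2.26% of the regions of both hairpins, and the share was higher in the former on 17 of 21 autosomes. In the 500 bp downstream the values were 4.27% (243 regions) and 4.71%. Of the regions within 500 bp of a start, 45.0% were upstream in the knockdown-only class (interval 40.5 to 49.7%) and 32.5% in the class of both hairpins (30.2 to 34.8%). The shLUC-only and hPSC-only regions, with 48.0% and 48.8%, were near the knockdown-only value.

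**Figure D3:**
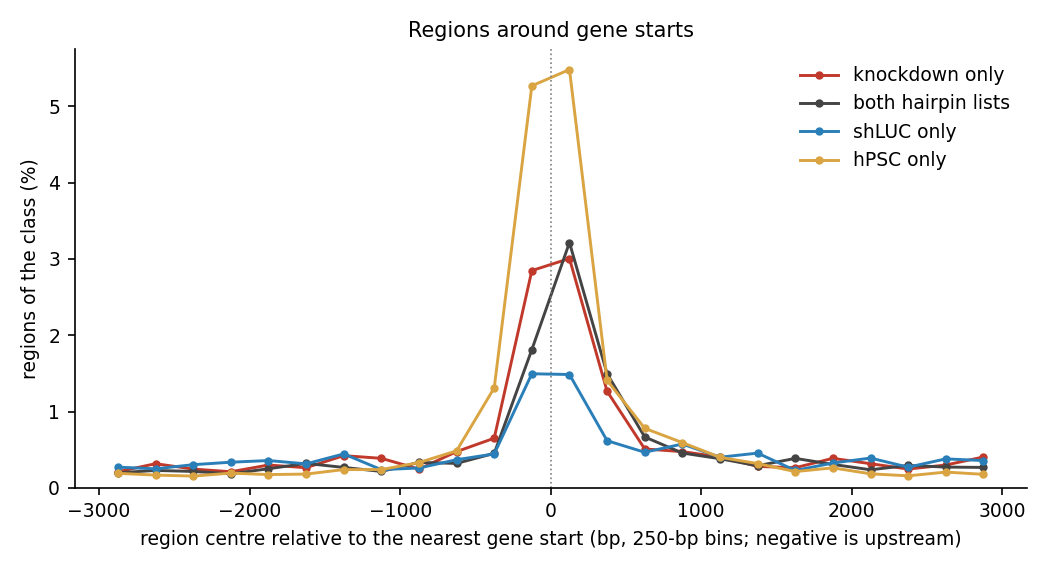
Share of the regions of each class (percent) by distance of the centre from the nearest annotated gene start (protein-coding or other), negative values being upstream. Regions of both hairpins lie more often downstream of the start (32.5% of those within 500 bp are upstream), while the knockdown-only regions are more evenly placed (45.0%).

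The share of the shHNRNPU list that was knockdown-only varied little between autosomes. It was 16.25% over all autosomes (5816 of 35787 regions), from 13.2% on chromosome 8 to 18.0% on chromosome 22. The X chromosome stood above this range, with 23.75% (109 of 459 regions, interval 20.1 to 27.9%). Regions of any class were sparse there. Knockdown-only regions numbered 0.699 per Mb on the X chromosome and 2.02 per Mb on the autosomes, and regions of both hairpins 1.63 and 8.28 per Mb. The share of the shLUC list found in that list only was also higher on the X chromosome, at 29.7% against 24.6% on the autosomes. Both hairpin lists thus had a larger part found in 1 list alone on this chromosome, and the cause of this was not tested. Neither Xist RNA nor the state of the X chromosome was measured in these data. Chromosome Y, sparser still, held 3 knockdown-only regions among 31 (9.68%) and 5 shLUC-only regions among 33 (15.15%).

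Knockdown-only regions lay near chromosome ends more often than regions of both hairpins. Of those on autosomes, 13.2% lay within 5 Mb of an end and 6.16% within 2 Mb, against 10.9% and 5.06% for both hairpins, 13.8% and 6.91% for shLUC only and 9.84% and 4.29% for hPSC only. The knockdown-only and shLUC-only classes were again alike here. Gene-rich windows held more members, and members were also a larger part of the list there. In windows of 1 Mb without a protein-coding gene, 13.7% of the shHNRNPU regions were knockdown-only, and in windows with 20 or more genes 18.6% were, the number per window rising from 0.797 to 3.91. Regions of the other classes also became more numerous, from 1.32 to 6.04 per window for shLUC only, 4.35 to 19.5 for hPSC only and 4.26 to 13.2 for both hairpins.

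**Figure D4:**
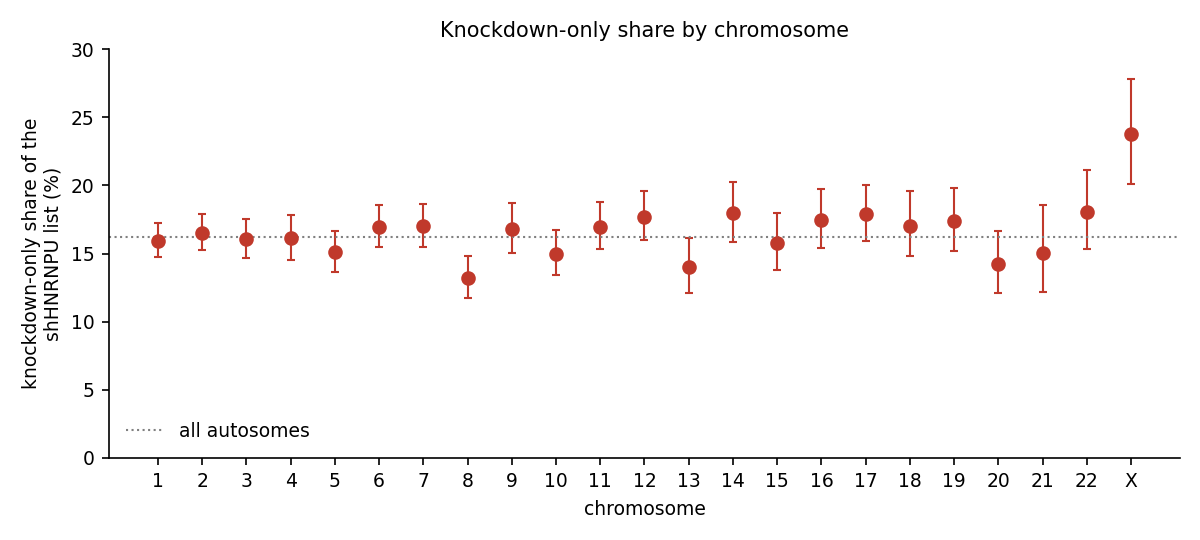
Knockdown-only regions as a share of the shHNRNPU list (percent, with 95% Wilson intervals as bars) for each autosome and the X chromosome. The autosomes lie between 13.2 and 18.0% and the X chromosome at 23.75%.

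Of 20033 protein-coding genes, 2757 held at least 1 knockdown-only region, 13.8% of them. A gene is said to hold a region when the centre of the region lies in its body. Most of these, 2280 genes (82.7%), held exactly 1, 366 held 2 and 111 held 3 or more (0.554% of all genes). Of the 2757 genes, 705 (25.6%) held no region of the shLUC list, and 397 (14.4%) held none of the shLUC or hPSC lists. A region called only after knockdown often did not go with a higher total for the gene. The shHNRNPU list had more regions than the shLUC list in 1765 of the 2757 genes (64.0%). It had the same number in 586 and fewer in 406 (14.7%), although the genes were picked for a region absent from the shLUC list. The shares without control regions or with more shHNRNPU regions are not given here for all protein-coding genes. Nothing particular to the 2757 genes is read from them.

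Longer genes held members more often. The genes holding a knockdown-only region had a median span of 91.9 kb, against 19.97 kb for those that held none, and the share holding one went from 2.03% of genes under 5 kb to 67.3% of genes over 500 kb. Per unit of length the order was the opposite, with 8.12 knockdown-only regions per Mb in genes under 5 kb and 1.52 per Mb in genes over 500 kb. As a part of the shHNRNPU regions in the same genes they varied less, between 12.2% and 16.9%. In the 2761 genes over 100 kb whose strand was known from the promoter table, 23.5% of the members lay in the first of 5 equal parts of the gene and 19.7% in the last, and the values for both hairpins were 24.2% and 19.2%.

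The 10 genes with the most knockdown-only regions were all long, with spans of 271.8 kb or more, and were picked by these counts. PDZD2, which codes for a PDZ domain protein, held 8 knockdown-only regions in 471.8 kb, out of 18 shHNRNPU regions, while the shLUC list had 12 and the hPSC list 7. Its first and last members (chr5:31653736-31654135 and chr5:32090630-32091029) lay near opposite ends of the gene. PTPRN2, a phosphatase-like receptor of secretory vesicles, also held 8, yet its total of 26 was below the 29 of the shLUC list, and the hPSC list had 24. PTPRG, a receptor-type tyrosine phosphatase, held 7 out of 23, against 20 shLUC and 10 hPSC regions. CAMTA1, a calmodulin-binding transcription activator, held 6 out of 22, against 20 and 10. In PDZD2, PTPRG and CAMTA1 the shHNRNPU list thus exceeded both controls, and in PTPRN2 it did not exceed shLUC.

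The other 6 genes of these 10 include proteins of the synapse and of mitosis. DLG2, a scaffold of the postsynaptic density, held 6 members out of 23 regions, against 20 shLUC and 17 hPSC regions. DLGAP1 and DLGAP2, which code for binding partners of such scaffolds, held 5 out of 19 and 6 out of 20, and in both the shLUC list had more regions (22 and 24). MAD1L1, a spindle checkpoint gene, held 6 out of 17 against 19 for shLUC, and SORCS2, a sortilin-family receptor, 5 out of 12 against 14. ATXN7L1, a relative of the ataxin 7 gene, held 5 out of 10 against 6. Other genes with 5 members were not named because ties were broken by symbol.

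Density picked out shorter genes, several of which had few or no control regions. AP2A1, the alpha subunit of the AP-2 clathrin adaptor, held 3 knockdown-only regions in 40.11 kb (7.48 per 100 kb), with 0 shLUC and 0 hPSC regions. It was the single gene with 3 or more members and no control region. ANAPC5, a subunit of the anaphase-promoting complex, ADGRG5, an adhesion G protein-coupled receptor, and RANBP3, a Ran-binding protein of nuclear export, each held 3 members that were their only shHNRNPU regions, with 0 shLUC regions and 1 hPSC region. SEMA4B, a semaphorin, held 3 out of 3 against 1 shLUC and 2 hPSC regions, and ACSS2, an acetyl-CoA synthetase, 3 out of 4 against 1 and 1. PTCH1, the Hedgehog receptor, held 3 out of 5 against 2 and 5, and RAB11FIP3, a RAB11 effector, 3 out of 4 against 1 and 3. CMTM4 and ITPKB, an inositol trisphosphate kinase, held 3 out of 5 each, with 3 shLUC regions each and 2 and 0 hPSC regions. These genes were ranked by the same counts that are given here, which are therefore a description.

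**Figure D5:**
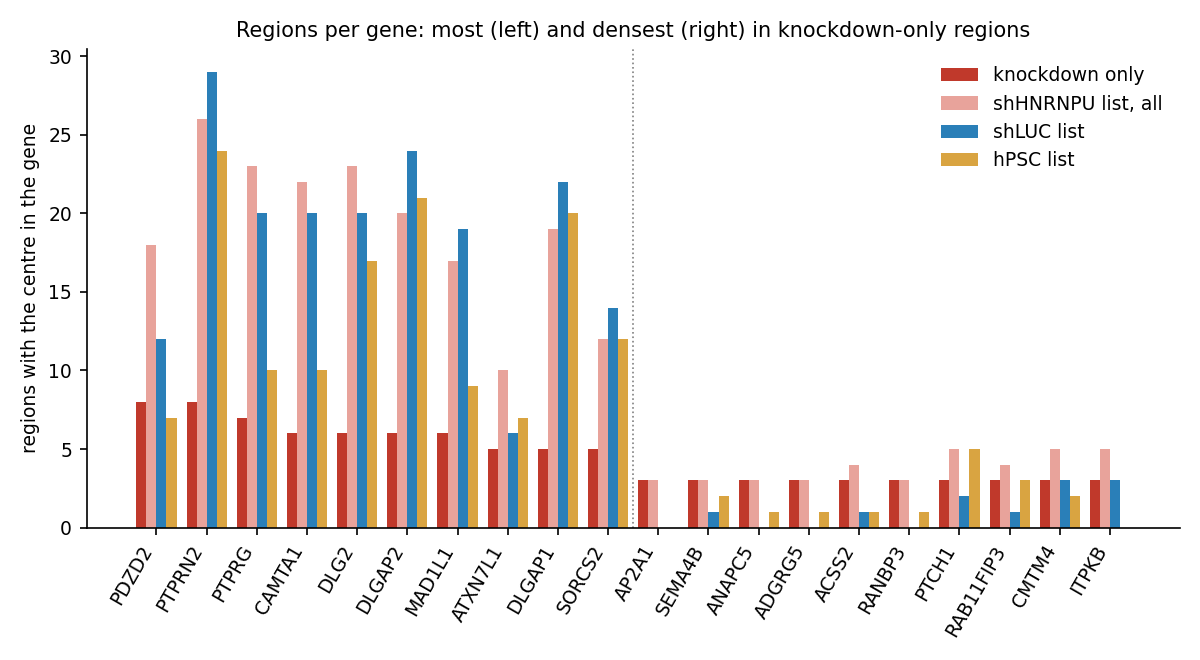
Number of regions in the genes with the most knockdown-only regions and in the densest genes of at least 20 kb, with the knockdown-only regions beside the totals of the shHNRNPU, shLUC and hPSC lists. AP2A1 has 3 knockdown-only regions and no region of either control, while PTPRN2 has 8 and more shLUC regions (29) than shHNRNPU regions (26).

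The HNRNPU gene itself (chr1:244850297-244864543, hg38) held no knockdown-only region. It held 2 shHNRNPU, 1 shLUC and 1 hPSC region, and the nearest member had its centre 56901 bp from an end of the gene. Of 40 genes for proteins of the nuclear matrix, the lamina and the hnRNP family, 5 (12.5%) held a member, near the 13.8% of all genes, and none had an end within 1 kb of one. They were SAFB, scaffold attachment factor B, another protein that binds matrix-associated DNA, SUN1, SYNE1 and SYNE2 of the bridge between lamina and cytoskeleton, and TOP2A, a topoisomerase of mitotic chromosomes.

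Gene ends near a knockdown-only region were found for 679 of all protein-coding genes, 3.39% of them, and the gene lists are read against this share. Developmental transcription factors had 13 of 197 (6.60%) and ribosomal protein genes 5 of 81 (6.17%). The synaptic adhesion genes had 2 of 41 (4.88%), ZNF genes 14 of 509 (2.75%), cohesin and condensin genes 1 of 21 (NCAPD3), clustered histone genes 1 of 73 (H4C5) and clustered protocadherins 1 of 53 (PCDHB3). Olfactory receptor genes and genes of common fragile sites had 0 of 390 and 0 of 25. The lists differ in gene length and promoter GC content, and nothing particular to a list is read from these shares.

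Among the developmental transcription factors, 10 were named by symbol order. HOXA13, a homeobox gene of limb and hindgut, had a member centred 221 bp from an end, and OTX1, a homeobox gene of the forebrain, one at 778 bp. NKX1-1 had one at 109 bp, FOXD2 at 665 bp and LHX9 at 865 bp. In each of these 5 genes the member was the only region of any list centred inside the gene. The genes are short, with spans of 2.648 to 23.02 kb, and no such share of other short genes is given. Across an end of the gene, a shLUC region lay 0.316 kb from the FOXD2 member, 1.124 kb from the LHX9 member and 1.416 kb from the OTX1 member. SIX3, a gene of the eye field, had one at 593 bp with 0 shLUC regions and 1 hPSC region, and IRX1 one at 213 bp with 1 shLUC region. FOXK2 and PAX7 had members at 321 and 565 bp and 3 shLUC regions each. An hPSC region lay 0.123 kb from the FOXK2 member. For FOXJ1 the centre of the member, at 259 bp, lay outside the gene. With a gap under 1 kb counted as found, the FOXD2 and FOXK2 members would not remain. Expression of these genes was not measured in these data.

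Of the pluripotency genes, FGF4, which codes for a growth factor made by pluripotent cells, held 1 member 319 bp from an end and no region of either control. ESRRB, LEFTY2, LIN28B, TERF1 and TRIM71 held members further from their ends, so that 6 of the 29 found in the gene table (20.7%) held one, against 13.8% of all protein-coding genes, and nothing particular to the list is read from 6 genes. Members were centred near the ends of RPL5 (26 bp), RPS9 (74 bp), RPL35 (161 bp), RPL30 (171 bp) and RPS6 (934 bp), which code for ribosomal proteins and are transcribed in every cell. RPL5 held the centre of its member and no other region. For the other 4 of these short genes the centre lay outside the gene, and no region of any list was centred inside. The RPS9 stretch printed above is 1 of these, with 2 MspI sites and 58.0% GC.

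Genes of fragile sites and of synaptic adhesion are long, with median spans of 1504 and 788.2 kb. Of 25 genes of common fragile sites 19 (76.0%) held one, and 56 of the 329 shHNRNPU regions in them (17.0%) were knockdown-only. Of 41 synaptic adhesion genes 23 (56.1%) held one, with 40 of 275 regions (14.55%). Both shares of the list are near the 16.3% of the whole list. Lists with few regions lay further from it on both sides, such as olfactory receptor genes (7 of 21, 33.3%) and clustered protocadherins (2 of 30, 6.67%). DCC and ADGRL2, an adhesion receptor of synapses, were the 2 with a member at an end, 165 and 107 bp away, and each held several control regions elsewhere in its body (5 shLUC and 4 hPSC regions in DCC, 11 and 13 in ADGRL2). The ADGRL2 promoter window had 37.3% GC, the lowest among the windows of the gene lists that a member reached.

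Zinc finger genes on chromosome 19 included ZNF347, whose upstream stretch is printed above, with a member 94 bp from its start, and ZNF345 and ZNF526, which held no control region and had members 414 and 489 bp from an end. ZNF512 on chromosome 2 had one at 64 bp and also held no control region. Of the 10 ZNF genes taken by symbol order, 8 held a member, and these 3 were the ones without a control region. ZNF316 held 2 shHNRNPU against 4 shLUC regions, and ZNF219 held 3 against 2 shLUC and 3 hPSC regions. ZNF195 held 1 shLUC region and ZNF318 1 hPSC region. The ZNF195 member lay 0.094 kb from a shLUC region and 0.43 kb from an hPSC region. With a gap under 1 kb counted as found, it would not remain. For ZNF275 and ZNF664 the centre of the member lay outside the gene. Against the 13.8% of all protein-coding genes, members were held by 55 of 509 ZNF genes (10.8%), by 27 of 197 developmental transcription factors (13.7%), by 7 of 390 olfactory receptor genes (1.79%) and by none of 73 histone genes. The 15 clustered protocadherin genes that held a member shared 2 regions, because these genes overlap.

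Hairpins of microRNAs were reached in 5 of 1562 cases (0.32%), against 26 for the regions of both hairpin lists, 6 for shLUC only and 24 for hPSC only. The classes differ in size (5928, 24067, 9693 and 32021 regions, respectively), and the counts are not corrected for this. MicroRNAs are short RNAs that repress messages through pairing of their seed, bases 2 to 8, which is given in capitals. The mature RNAs of the 3 hairpins that lay wholly inside a member, MIR564 in KIF15, MIR4323 in POU2F2 and MIR8085 in BCL3, and of MIR138-1, of which 89 of 99 bases did, are printed from RefSeq.
miR-564: aGGCACGGugucagcaggc
miR-4323: cAGCCCCAcagccucaga
miR-8085: uGGGAGAGaggacugugaggc
miR-138-5p: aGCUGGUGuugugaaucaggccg
miR-138-1-3p: gCUACUUCacaacaccagggcc
The remaining hairpin, MIR665, shared 20 of its 72 bases with a member. The 6 mature RNAs of these hairpins had 6 different seeds, so none formed a seed family with another.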

How the data were processed

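MAR-seq was measured in 6 samples of H1 hPSCs, 2 in each of 3 groups (hPSC, shHNRNPU, shLUC). The submitters' processing notes name cutadapt, Bowtie2, SAMtools, MACS2, deepTools and the build hg38. Their order, settings and any pooling of samples are not given in the sources used here, nor is the depth. The authors deposited 1 BED list per group, whose score column is 0 throughout, so positions alone were used. Regions were compared at an overlap of 1 bp in Python 3.11.15 (numpy 2.4.6, pandas 2.3.3, scipy 1.17.1, matplotlib 3.10.9). Gene positions, promoter windows and microRNAs came from RefSeq tables (GRCh38.p14). No genome sequence was used, and promoter windows of chromosome 8 were not analysed here. The scripts were tested on simulated lists with known overlaps. Genes named were the 10 with the most members, those with 3 or more and no control region, the 10 densest of at least 20 kb, up to 10 per gene list with an end within 1 kb of a member's centre (ties by symbol), and HNRNPU. Other list members are named where a count was small, and these were chosen after their values were seen. The pluripotency genes near a member are not reported here in full. The regions, gene lists and rules were chosen with earlier results of these data known. Alternatives were other overlap rules, autosomes alone and other gene and promoter rules.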

Additional observations from a re-analysis of the deposited data

How the results depend on the processing

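No paired analysis was possible because no list carries a value for a single sample, and for the same reason no replicate could be left out. The base composition of the central 200 bp, which needs the genome, was not run. Of 41 values recomputed, 20 stayed within the counting interval of the main value (for the number of regions, within 1.5 times) and 21 moved. The interval of mean GC treats single bases as independent and is narrower than the spread over windows gives. For the distance, chromosome end, GC and overlap-rule promoter results the alternatives were chosen after seeing the data. With overlap of at least 50% of both regions required, with identical coordinates required, or with a gap under 1 kb counted as found, the knockdown-only share of the list was 17.0, 18.8 and 15.4%. Under the same rules the share near a gene end was 11.6, 14.6 and 8.77%, the share of genes holding a member 14.4, 15.9 and 12.9%, and the share of promoter windows reached 1.67, 2.60 and 1.16%. The identical and gap rules gave 76.1 and 70.7% of members within 20 kb of a control region and a mean GC of 68.8 and 69.4%. The gene body share was 55.6% with protein-coding genes alone and 68.9% with any overlap. Ends within 5 kb gave 21.6%, gene bodies with 5 kb added 17.1% of genes, and an overlap of 100 bp 1.09% of promoter windows. Requiring a closer match admits regions that partly overlap control regions, and these lie often at gene ends. Under the 3 other overlap rules the share near gene ends stayed above that of shLUC-only regions (11.6 against 7.12%, 14.6 against 9.13% and 8.77 against 5.68%). The number of regions ranged from 5574 to 6822.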
